A study of Homo sapiens with 15 samples.

Results

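The transcript levels of 7 genes of the pharyngeal region and the second heart field were followed through cardiac differentiation of human embryonic stem cells. The genes were the secreted growth factors FGF8 and FGF10, the transcription factors ISL1, TBX1, NKX2-6 and LHX2, and the transcriptional coactivator EYA1. They are 7 of the 60605 genes in the deposited table, and all 7 were among the 21206 genes that reached an FPKM of 1 in any library. The set was chosen by name with the levels of these genes in the 15 libraries already known. Levels and differences of the 7 genes are therefore given as descriptions without p-values. FPKM is the read count divided by exon length and library total, so levels of different genes can be set side by side per length.

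H1, an established line of human embryonic stem cells, was wild type in all libraries and was induced to mesendoderm with the WNT activator CHIR99021. Days 0, 1 and 2 had 1 bulk RNA sequencing library each, taken before the arms were divided. NP-ctrl cells then stayed in their wells without an inducer, NP-IWP2 cells stayed likewise but were given IWP2, which blocks the secretion of WNT, from day 2 to day 4, and passaged cells were taken off the plate on day 2 and seeded again without IWP2. Each arm had 1 library on days 3, 5, 7 and 10. The arms were single cultures of 1 cell line, and replating also lowered the cell density. The study's text has the ROCK inhibitor Y27632 added in its later differentiations, whereas the labels of these libraries do not mention it, so the passaged arm differs from the static arms in more than the loss of adhesion. Total counts were 13254723 to 20250115 per library with a median of 15269132. Because no library had a replicate, ratios carry exact 95% intervals that cover counting error only.

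The second heart field is a pool of progenitors in the pharyngeal mesoderm that is added to the heart tube late and builds the outflow tract and the right ventricle. ISL1 marks these progenitors, TBX1 acts in the pharyngeal arches upstream of FGF ligands, and FGF8 and FGF10 signal to the progenitors and keep them dividing. EYA1 acts in the same region, NKX2-6 is a homeobox gene of the pharynx and outflow tract related to the cardiac factor NKX2-5, and LHX2 is a LIM homeodomain factor known from the forebrain, limb, hepatic stellate cells and head muscle progenitors.

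FGF8, FGF10, NKX2-6 and EYA1 were highest in the passaged library on all 4 days. ISL1 was highest in the passaged library on 2 days and TBX1 on 3 days. LHX2 went the other way and was lowest in the passaged library on 3 days. In bulk RNA, a larger share of cells that express a gene and more RNA per cell cannot be told apart. The order passaged over NP-IWP2 over NP-ctrl held on days 5, 7 and 10 for 3 of the 7 genes, FGF8, FGF10 and NKX2-6, and for 3.39% of all 21206 genes. FGF10 kept that order on day 3 as well, as did 0.726% of all genes, but on the TPM scale, in which FPKM is rescaled to the same sum in every library, FGF10 on day 10 was slightly lower in passaged cells than in NP-IWP2, with a log2 ratio of -0.07.

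**Figure D1:**
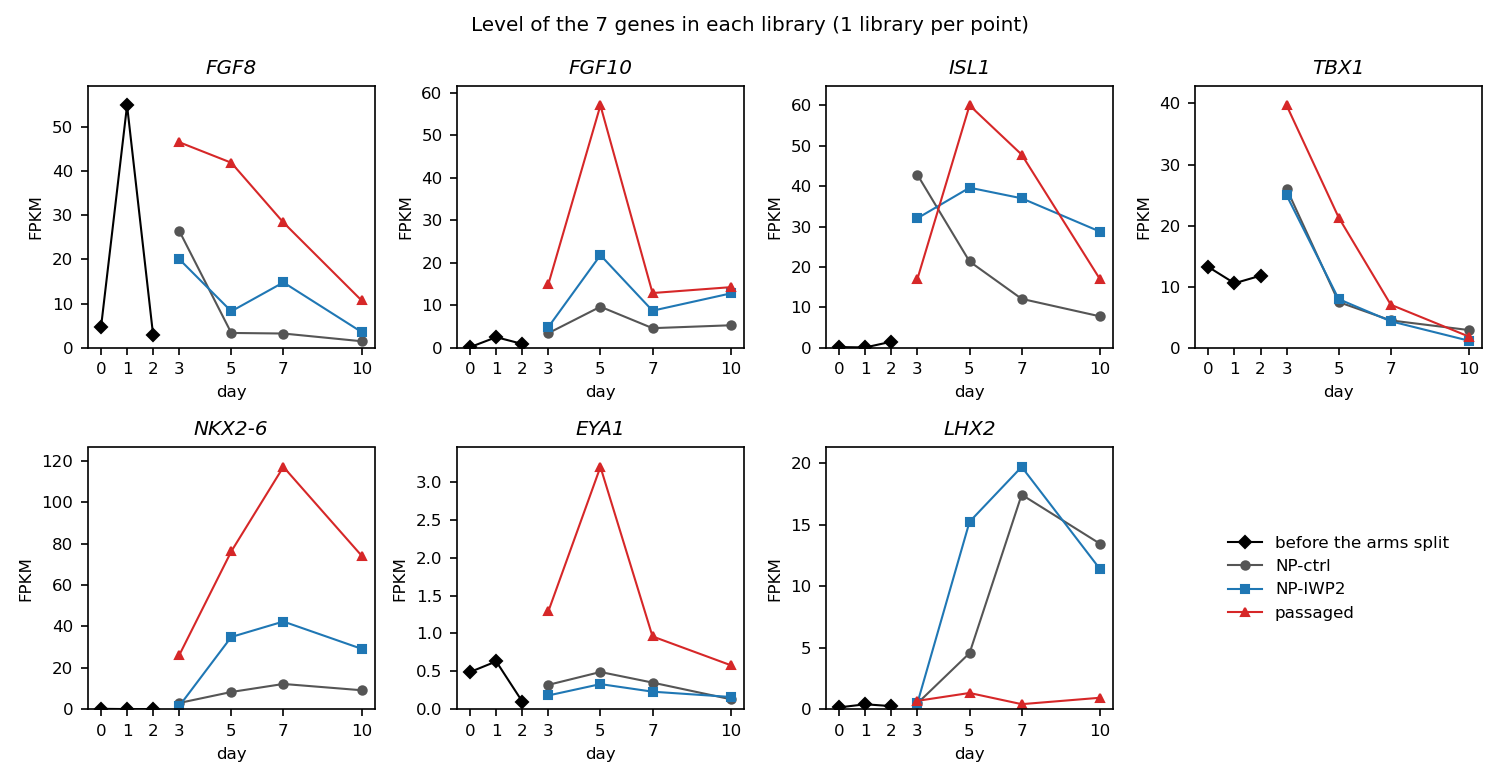
FPKM (y axis, linear, separate scale per gene) of the 7 genes on days 0 to 10 (x axis), with 1 library per point, before the arms were divided (black) and in NP-ctrl (grey), NP-IWP2 (blue) and passaged cells (red). NKX2-6 reached 117 in passaged cells on day 7, whereas LHX2 stayed between 0.40 and 1.31 there and reached 17.4 and 19.7 in the static arms.

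FGF8, a ligand that gastrulating mesoderm and later the pharynx secrete, had 2 separate maxima. Its FPKM was 4.61, 55.0 and 2.84 on days 0, 1 and 2. In NP-ctrl it was 26.5, 3.32, 3.19 and 1.44 on days 3, 5, 7 and 10. In NP-IWP2 it was 20.1, 8.23, 14.8 and 3.54 on the same days. The level on day 1 was above every later library, and the return on day 3 was seen in all arms. In passaged cells FGF8 was 46.6, 41.9, 28.4 and 10.7. It thus stayed high in passaged cells on the days when it was low in NP-ctrl, and the ratio of passaged to NP-ctrl went from 1.76 (1.59 to 1.95) on day 3 to 12.6 (9.98 to 16.2) on day 5, 8.90 (6.83 to 11.8) on day 7 and 7.42 (5.01 to 11.4) on day 10. The NP-IWP2 library of day 7 stood 4.64-fold (3.52 to 6.19) above NP-ctrl, the largest FGF8 ratio between the static arms.

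FGF10, a ligand that second heart field cells express themselves, came later. Its FPKM was 0.11, 2.45 and 0.86 on days 0, 1 and 2. NP-ctrl had 3.39, 9.62, 4.57 and 5.25 on days 3, 5, 7 and 10, and NP-IWP2 had 4.82, 21.8, 8.68 and 12.8. Passaged cells had 14.9, 57.0, 12.8 and 14.2. Day 5 was the highest day in every arm, and it stood 3.83-fold (3.61 to 4.07) above the next highest day in passaged cells but 1.83-fold (1.64 to 2.06) in NP-ctrl. On day 5, FGF10 in passaged cells was 5.92-fold (5.53 to 6.35) above NP-ctrl and 2.62-fold (2.49 to 2.76) above NP-IWP2. By day 10 passaged cells and NP-IWP2 were close, with a ratio of 1.12 (1.03 to 1.20).

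ISL1, the LIM homeodomain factor that marks second heart field progenitors, had an order of arms that turned over time. Its FPKM was 0.13, 0.04 and 1.46 on days 0, 1 and 2, from 6, 2 and 83 counts. In NP-ctrl it was highest on day 3 and went down from there, with 42.8, 21.3, 12.1 and 7.75 on days 3, 5, 7 and 10. In NP-IWP2 it was nearly level, with 32.1, 39.6, 37.0 and 28.8. In passaged cells it was 17.1, 60.0, 47.8 and 17.01. The passaged library therefore held the lowest ISL1 level of the arms on day 3 and the highest on days 5 and 7. The ratio of passaged to NP-ctrl was 0.398 (0.364 to 0.435) on day 3, 2.81 (2.61 to 3.03) on day 5, 3.96 (3.57 to 4.40) on day 7 and 2.19 (1.91 to 2.52) on day 10. On day 10 NP-IWP2 had the highest level, and the ratio of passaged to NP-IWP2 was 0.591 (0.539 to 0.648).

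ISL1 is transcribed away from a long noncoding RNA, ISL1-DT, whose start lies on the opposite strand 115 bases before that of ISL1. The stretch before the ISL1 start is shown because both transcripts begin beside it. It is the plus strand of chr5:51383198-51383447 in GRCh38.p14, from RefSeq, and the capitals mark the bases between the 2 starts.
ISL1: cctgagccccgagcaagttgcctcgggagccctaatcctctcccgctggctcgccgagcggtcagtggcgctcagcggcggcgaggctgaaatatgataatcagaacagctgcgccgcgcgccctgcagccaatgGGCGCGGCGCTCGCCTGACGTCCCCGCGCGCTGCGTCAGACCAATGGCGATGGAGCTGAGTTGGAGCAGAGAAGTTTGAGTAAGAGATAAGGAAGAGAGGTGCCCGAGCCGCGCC
Counts of ISL1-DT were 0, 1 and 30 on days 0, 1 and 2. On days 3, 5, 7 and 10 they were 295, 424, 215 and 218 for NP-ctrl, 222, 609, 747 and 854 for NP-IWP2, and 237, 760, 626 and 295 after passaging. Both genes of the pair thus lay at or near 0 until day 1 and were higher in passaged cells and NP-IWP2 than in NP-ctrl on days 5, 7 and 10, whereas on day 3 the 3 arms differed little in ISL1-DT FPKM (2.54 for NP-ctrl, 2.30 for NP-IWP2 and 2.42 after passaging) but not in ISL1. Over the 15 libraries, which include days 0 to 2 when both were low, log2 library-scaled counts of the pair had a Pearson r of 0.963.

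RefSeq promoter windows were listed for 4 of the 7 genes, ISL1, TBX1, FGF10 and LHX2, and not for FGF8, NKX2-6 or EYA1. The 250 bases before each start were searched on both strands for AGATAA (the motif of GATA factors), TNAAGTG (NKX2 factors), CTTTGA (TCF and LEF factors, which act in WNT signalling), AGGTGTNA (T-box factors) and CCAAT. The ISL1 window held AGATAA 31 bases before the start and CCAAT at 75 and 121 bases before it, and the matches at 31 and 75 bases lie within the capitals above. The LHX2 window held CCAAT 229 bases before the start and none of the other motifs. The TBX1 and FGF10 windows held none of the 5 motifs. Among all 35116 promoter windows, AGATAA was in 9.17%, TNAAGTG in 8.73%, CTTTGA in 11.2%, AGGTGTNA in 2.15% and CCAAT in 32.0%. The LHX2 window is shown because LHX2 was the member that went the other way. It is the plus strand of chr9:124011518-124011767 in GRCh38.p14, before a RefSeq start that lies inside the span the deposited table gives for LHX2, with the CCAAT match in capitals.
LHX2: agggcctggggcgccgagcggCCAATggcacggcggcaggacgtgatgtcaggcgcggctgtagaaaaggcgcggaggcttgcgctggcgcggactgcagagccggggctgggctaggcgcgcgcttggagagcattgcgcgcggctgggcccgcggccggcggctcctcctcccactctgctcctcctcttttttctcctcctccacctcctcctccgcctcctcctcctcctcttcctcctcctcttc

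LHX2 had an FPKM of at most 0.67 before day 5 and was called between passaged cells and the static arms from then on. Its FPKM was 0.14, 0.39 and 0.24 on days 0, 1 and 2. NP-ctrl cells had 0.47, 4.55, 17.4 and 13.5 on days 3, 5, 7 and 10, and NP-IWP2 cells had 0.50, 15.2, 19.7 and 11.4. Passaged cells had 0.67, 1.31, 0.40 and 0.92, from 15 to 50 counts. The passaged library was below both static libraries on each of days 5, 7 and 10, with 1 library per arm and day. On day 7, NP-ctrl was 43.5-fold above passaged cells, as the inverse of a passaged to NP-ctrl ratio of 0.0230 (0.0128 to 0.0382). NP-IWP2 was called above NP-ctrl on day 5 alone, with a ratio of 3.35 (2.82 to 3.99), against 1.13 (1.01 to 1.26) on day 7 and 0.848 (0.743 to 0.968) on day 10.

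TBX1, the T-box factor of the pharyngeal arches, was expressed from the start and declined after day 3. Its FPKM was 13.2, 10.5 and 11.8 on days 0, 1 and 2. In NP-ctrl it was 26.0, 7.46, 4.45 and 2.87 on days 3, 5, 7 and 10, and in NP-IWP2 it was 25.0, 7.94, 4.31 and 1.12. In passaged cells it was 39.7, 21.3, 7.02 and 1.80. Day 3 was the highest day in every arm. The static arms differed by less than counting error on days 3, 5 and 7, with NP-IWP2 to NP-ctrl ratios of 0.958 (0.890 to 1.03), 1.06 (0.929 to 1.22) and 0.969 (0.808 to 1.16). Passaged cells were 2.85-fold (2.56 to 3.19) above NP-ctrl on day 5 and below it on day 10, with a ratio of 0.628 (0.484 to 0.811). TBX1 overlaps GNB1L on the opposite strand by 371 bases at its end, and GNB1L had 22 to 302 counts per library, so some reads of the overlap may be shared if counting did not use strand.

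NKX2-6, the homeobox gene, was the member with the highest level of all and the one whose difference between passaged cells and NP-ctrl was most even. It had 4 counts on day 0 and 0 on days 1 and 2, which allows an FPKM of up to 0.0917 and 0.0835. In NP-ctrl its FPKM was 2.95, 8.27, 12.2 and 9.12 on days 3, 5, 7 and 10, and in NP-IWP2 it was 1.42, 34.9, 42.4 and 29.2. In passaged cells it was 26.0, 76.3, 117 and 74.3. The passaged library was above both static libraries on each day. The ratio of passaged to NP-ctrl was 8.83 (7.03 to 11.2) on day 3, 9.23 (8.05 to 10.6) on day 5, 9.64 (8.54 to 10.9) on day 7 and 8.14 (7.08 to 9.41) on day 10. The highest of these was 1.18 times the lowest, against 2.18 times for FGF10, 2.36 for EYA1, 4.54 for TBX1, 7.16 for FGF8, 9.95 for ISL1 and 62.6 for LHX2. The difference was present 1 day after replating. Taking 3 counts for day 2, NKX2-6 in passaged cells on day 3 was at least 312-fold (106 to 1516) above day 2. It also rose in the static arms, by at least 35.3-fold (11.7 to 175) in NP-ctrl and 17-fold (5.35 to 86.5) in NP-IWP2.

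NP-IWP2 reached its NKX2-6 level later. On day 3 it was below NP-ctrl, with 34 against 85 counts and a ratio of 0.482 (0.314 to 0.725), and from day 5 it was above, with ratios of 4.22 (3.64 to 4.90), 3.49 (3.06 to 3.98) and 3.20 (2.75 to 3.73) on days 5, 7 and 10. Passaged cells were 18.3-fold (13 to 26.7) above NP-IWP2 on day 3 and 2.19-fold (2.02 to 2.37) to 2.77-fold (2.59 to 2.96) above it afterwards.

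EYA1, the coactivator, had the lowest maximum of the 7. Its FPKM was 0.49, 0.63 and 0.10 on days 0, 1 and 2. In NP-ctrl it was 0.32, 0.49, 0.35 and 0.13 on days 3, 5, 7 and 10, and in NP-IWP2 it was 0.18, 0.33, 0.23 and 0.16. In passaged cells it was 1.29, 3.20, 0.96 and 0.58. The passaged libraries were thus the only ones in which EYA1 passed an FPKM of 1, and this happened on days 3 and 5. Passaged to NP-ctrl ratios were 3.98 (2.87 to 5.59), 6.50 (5.06 to 8.45), 2.76 (1.94 to 3.98) and 4.53 (2.63 to 8.30) on days 3, 5, 7 and 10. Between the static arms EYA1 was not called on any day, and the intervals of days 7 and 10 included equality.

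**Figure D2:**
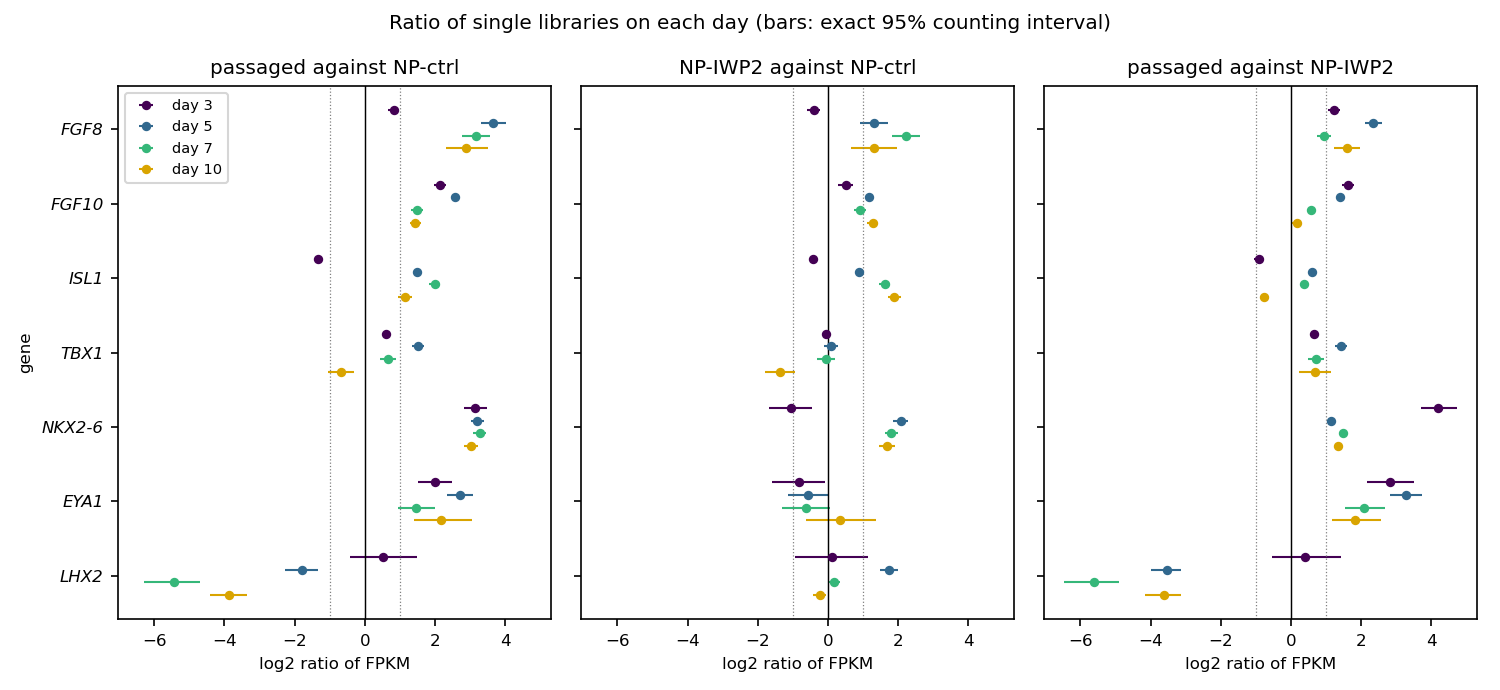
log2 ratio of FPKM (x axis) of the 7 genes (y axis) for passaged against NP-ctrl, NP-IWP2 against NP-ctrl and passaged against NP-IWP2, with 1 point per day and exact 95% counting intervals as bars. Solid lines mark equality and dotted lines 2-fold. The 4 NKX2-6 points of passaged against NP-ctrl lie together, between ratios of 8.14 and 9.64, and the LHX2 points of days 5, 7 and 10 lie far to the left in both comparisons with passaged cells.

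For counts over the set, a gene was called when its FPKM differed at least 2-fold and its counting interval excluded equality. Between passaged cells and NP-ctrl, 4 of the 7 genes were called on day 3, where the share among the 21206 genes was 14.5%. These were FGF10, NKX2-6 and EYA1 (higher) and ISL1 (lower). On day 5 all 7 were called, 6 higher and LHX2 lower, against 12.8% genome-wide. On day 7 there were 6 of 7, against 18.2%, and on day 10 also 6 of 7, against 23.3%, with ISL1, FGF8, FGF10, NKX2-6 and EYA1 higher and LHX2 lower on both days. The day 10 call of ISL1 was lost on the TPM scale, where the log2 ratio was 0.84. The median log2 ratio of the 7 was 0.81, 2.57, 1.49 and 1.44 on days 3, 5, 7 and 10, against 0.09, 0.04, -0.16 and -0.18 for all genes with more than 3 counts in either library. Because the genes were selected on these libraries, the counts describe the set and support nothing further.

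Between NP-IWP2 and NP-ctrl, 1 of 7 was called on day 3 (NKX2-6, lower), against 5.99% genome-wide. On day 5, 4 were called higher (FGF8, FGF10, NKX2-6 and LHX2), against 4.25%. On day 7, 3 were called higher (ISL1, FGF8 and NKX2-6), against 11% genome-wide. On day 10, 5 were called, with ISL1, FGF8, FGF10 and NKX2-6 higher and TBX1 lower, against 13.2%. The day 3 call of NKX2-6 was lost on the TPM scale, where the log2 ratio was -0.93. FGF8 and NKX2-6 were the members called higher in NP-IWP2 on all of days 5, 7 and 10.

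Between passaged cells and NP-IWP2, 4 of 7 were called on day 3 (FGF8, FGF10, NKX2-6 and EYA1, all higher), against 12.8% genome-wide. On day 5, 6 were called, with TBX1, FGF8, FGF10, NKX2-6 and EYA1 higher and LHX2 lower, against 12.1%. On day 7, 3 were called (NKX2-6 and EYA1 higher, LHX2 lower), against 11%, and on day 10, 4 were called (FGF8, NKX2-6 and EYA1 higher, LHX2 lower), against 15.9%. NKX2-6 and EYA1 were the members called higher on all 4 days. ISL1 was not called on any day of this comparison. The comparisons with NP-ctrl share its libraries, as do those with passaged cells, so their counts are not independent of each other.

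Averaged over days 3 to 10, an edgeR fit with day as a block gave a passaged minus NP-ctrl log2 difference of 3.22 ± 0.44 (SE, 12 libraries in the fit) for NKX2-6, 2.57 ± 0.47 for FGF8, 2.13 ± 0.29 for EYA1 and 1.98 ± 0.22 for FGF10. The difference was 0.86 ± 0.49 for ISL1, 0.58 ± 0.27 for TBX1 and -2.59 ± 0.82 for LHX2. ISL1 and TBX1 had days on both sides of equality. For LHX2 only day 3 lay above equality, and its interval included equality, with a ratio of 1.44 (0.749 to 2.79). Passaged minus NP-IWP2, the difference was 2.58 ± 0.30 for EYA1, 1.85 ± 0.42 for NKX2-6 and 0.01 ± 0.46 for ISL1. NP-IWP2 minus NP-ctrl, it was 1.37 ± 0.43 for NKX2-6, 0.97 ± 0.22 for FGF10 and -0.45 ± 0.30 for EYA1. The SE reflects how the difference varied among days of single cultures, not among separate differentiations.

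The 7 genes fell into an order of highest days. TBX1 was highest on day 3 in all arms, and so was FGF8 once its day 1 level was left aside. FGF10 was highest on day 5 in all arms, and EYA1 on day 5 in passaged cells. In the static arms EYA1 on day 1 could not be told from day 0 by counting error. ISL1 was highest on day 3 in NP-ctrl and on day 5 in passaged cells, and in NP-IWP2 days 5 and 7 differed by a ratio of 1.07 (0.999 to 1.15). NKX2-6 was highest on day 7 in all arms, above the next highest day by 1.54-fold (1.45 to 1.62) after passaging, 1.33-fold (1.11 to 1.60) for NP-ctrl and 1.21-fold (1.11 to 1.33) for NP-IWP2. LHX2 shared day 7 as its highest day in both static arms.

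Among all 21206 genes, 11.8% had their highest level of days 3 to 10 on day 7 in passaged cells, and 1.21% (256 genes) had it on day 7 in all 3 arms, where NKX2-6 was the only member. Day 5 was the highest day in all 3 arms for 2.37% of genes, with FGF10 and EYA1 among the members, and day 3 for 17% of genes, with TBX1 and FGF8. No member had its highest level on day 10, which was the highest day in all 3 arms for 9.76% of genes.

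The members also differed in how much of their level was left on day 10. In passaged cells the day 10 level was 63.4% (59.9 to 67.0) of the highest for NKX2-6. It was 28.3% (26.1 to 30.8) for ISL1, 24.9% (23.5 to 26.5) for FGF10 and 23.0% (19.8 to 26.5) of its level on day 3 for FGF8. It was 18.1% (14.1 to 22.9) for EYA1 and 4.54% (3.69 to 5.52) for TBX1. LHX2 had 70.2% (44.3 to 100) left, but of a highest level of 1.31. In NP-IWP2 the share left was 72.6% (67.4 to 78.2) for ISL1 and 68.8% (62.9 to 75.3) for NKX2-6, with 58.6% for FGF10 and 57.9% for LHX2, so there NKX2-6 was not alone. In NP-ctrl it was 75.0% (62.6 to 89.8) for NKX2-6 and 77.2% (68.0 to 87.4) for LHX2, against 54.6% (48.7 to 61.0) for FGF10 and 18.1% (16.0 to 20.5) for ISL1.

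**Figure D3:**
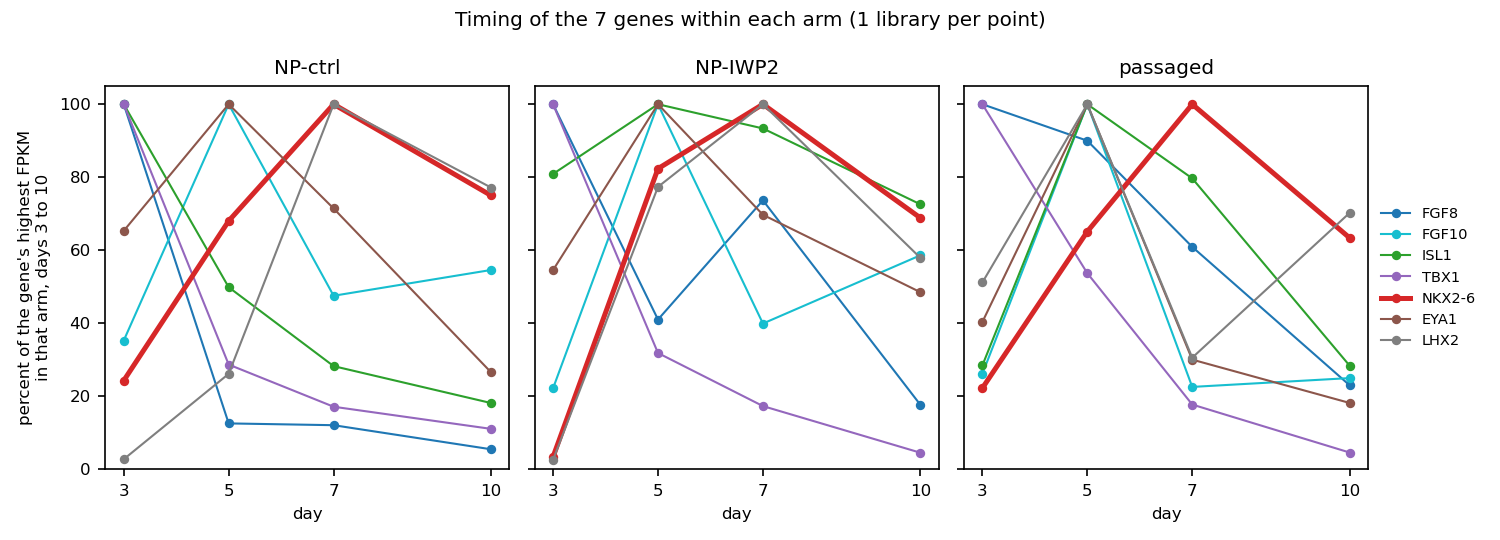
Level of each gene on days 3, 5, 7 and 10 (x axis) as a percentage of its own highest FPKM of those days in that arm (y axis), with 1 library per point and NKX2-6 drawn as the thick red line. In passaged cells NKX2-6 is highest on day 7 and keeps 63.4% on day 10, while ISL1, FGF10, FGF8, EYA1 and TBX1 keep 4.54% to 28.3%.

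Profiles over the 15 libraries were compared by Pearson r of log2(FPKM + 1), as a description without p-values, since the libraries share time, arm and culture. NKX2-6 was most like FGF10, with r = 0.87, then ISL1, with r = 0.76. Its r was 0.43 with EYA1, 0.38 with LHX2, 0.17 with FGF8 and -0.34 with TBX1. Much of this rests on days 0 to 2, when NKX2-6, ISL1 and FGF10 were all low. Over the 12 libraries of days 3 to 10, r was 0.74 with FGF10, 0.26 with ISL1, 0.52 with EYA1 and 0.03 with LHX2. ISL1 and FGF10 had r = 0.78 over the 15 libraries and 0.44 over the 12 libraries of days 3 to 10. Over the 15 libraries, r was 0.59 between TBX1 and FGF8, 0.62 between FGF8 and EYA1 and 0.42 between TBX1 and EYA1. EYA1 was about as like FGF10 as FGF8, with r = 0.59 with FGF10 over 15 libraries and 0.77 over days 3 to 10. LHX2 had r = -0.61 with TBX1 and -0.51 with FGF8 over the 15 libraries.

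**Figure D4:**
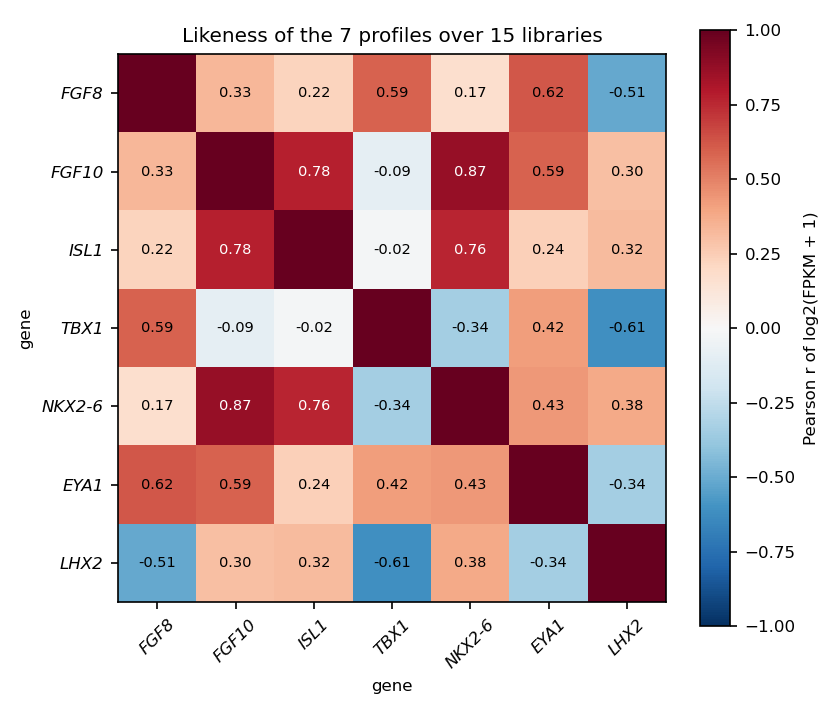
Pearson r of log2(FPKM + 1) over 15 libraries for each pair of the 7 genes (both axes), on a colour scale from -1 (blue) to 1 (red). NKX2-6 and FGF10 are the most alike pair, with r = 0.87, and TBX1 and LHX2 the least alike, with r = -0.61.

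Outside the set, NKX2-6 had close company. Among 10171 protein-coding genes that reached an FPKM of 5 in any library, 50 had an r over 0.9 with NKX2-6, against 45 for TBX1, 40 for LHX2, 18 for ISL1, 3 for FGF10 and 0 for FGF8 and EYA1. The nearest was COL2A1, a fibrillar collagen of cartilage that is also made in early mesoderm, with r = 0.985. These r were taken over the 15 libraries, days 0 to 2 included. Over days 3 to 10 alone COL2A1 was still the nearest, with r = 0.964. Its FPKM in passaged cells was 124, 749, 1059 and 503 on days 3, 5, 7 and 10. Like NKX2-6, COL2A1 was thus highest on day 7 in passaged cells. FZD4, a WNT receptor, MYLK3, the cardiac myosin light chain kinase, and SUMF1, a sulfatase-modifying enzyme, were also among the 5 nearest, with r of 0.958, 0.947 and 0.946.

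Long noncoding RNAs beside NKX2-6 were high in the same arm. NKX2-6 (ENSG00000180053) lies on chromosome 8 from 23701740 to 23706756 on the minus strand of GRCh38. An unnamed long noncoding RNA (ENSG00000253471) on the opposite strand, 385 bases from NKX2-6, had 0 counts on days 0 to 2 and 168 counts at most, in passaged cells on day 7. Another (ENSG00000254002) on the same strand, 7310 bases away, had 335 counts at most, in passaged cells on day 5. Log2 library-scaled counts of NKX2-6 had r = 0.962 with the nearer and 0.959 with the farther of these RNAs over 15 libraries. These include days 0 to 2, when NKX2-6 and both RNAs were at or near 0. Both RNAs thus had their highest count in passaged cells.

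The nearest genes of the other members were mixed in kind. TBX1 was nearest to IRX1, an Iroquois homeobox gene (r = 0.956), followed by C1orf35, BABAM1, IRX2 (r = 0.943) and ARVCF (r = 0.939), and ARVCF lies 186 kb from TBX1 on chromosome 22. On day 3, IRX2 was 130 after passaging, 49.0 for NP-ctrl and 41.8 for NP-IWP2, so that like TBX1 it was highest after passaging. IRX1 was lowest after passaging that day, with 61.0 against 69.5 for NP-ctrl and 68.8 for NP-IWP2. FGF10 was nearest to SLU7, a splicing factor (r = 0.933), and to DACH1, which acts with EYA1 (r = 0.922). EYA1 was nearest to ALDH1A2, the enzyme that makes retinoic acid (r = 0.864), whose FPKM was 9.28 in passaged cells on day 5 and at most 3.04 in any other library. LHX2 was nearest to RELN, the secreted glycoprotein reelin (r = 0.963), which was 21.35, 20.3 and 22.4 in NP-ctrl on days 5, 7 and 10. RELN was at most 0.52 in passaged cells on these days, the same direction as LHX2. ISL1 was nearest to NECAB3 (r = 0.941), and FGF8 to FKBP3 (r = 0.828). Over days 3 to 10 alone, NECAB3 had r = 0.756 with ISL1 and ranked 45, whereas FKBP3 stayed first for FGF8, with r = 0.951. FBXW4, the fifth nearest to FGF8 (r = 0.773), lies 74.8 kb from it on chromosome 10.

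The remaining members lie apart from each other in the genome. On GRCh38, ISL1 (ENSG00000016082) is on chromosome 5 from 51383448 to 51394730 on the plus strand, and FGF10 (ENSG00000070193) on chromosome 5 from 44300247 to 44389706 on the minus strand. FGF8 (ENSG00000107831) is on chromosome 10 from 101770109 to 101780371 on the minus strand, TBX1 (ENSG00000184058) on chromosome 22 from 19756703 to 19783593 and LHX2 (ENSG00000106689) on chromosome 9 from 124001670 to 124033301, both on the plus strand. EYA1 (ENSG00000104313) is on chromosome 8 from 71197433 to 71592025 on the minus strand. Antisense or overlapping RNAs of FGF10, LHX2 and EYA1 had at most 21, 16 and 6 counts in any library.

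Other genes of the pathway were taken from 10 lists with 128 genes, of which 107 passed the FPKM filter. The lists were chosen with earlier results of these data known, so their counts and p-values describe the lists and support nothing further. With edgeR over days 3 to 10, 22 of the 107 had a Benjamini-Hochberg adjusted p under 0.05 between passaged cells and NP-ctrl, 12 higher and 10 lower, where the share for the 21206 genes was 4.4%. For passaged cells set against NP-IWP2, 15 passed, 6 higher and 9 lower, where the share was 1.33%. For NP-IWP2 set against NP-ctrl, 0 of the 107 passed edgeR, where the share was 0.0189%, while 20 had an unadjusted p under 0.05, and DESeq2 called 2. These calls depended on single days. Without day 7 the counts were 5 for passaged against NP-ctrl and 0 for passaged against NP-IWP2, and without day 5 they were 10 and 1, whereas without day 3 they were 44 and 25.

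Of 20 second heart field and outflow tract factors, all above the filter, passaging against NP-ctrl gave 3 higher and 2 lower, and the median log2 change was 0.02, against 0.00 for all genes. The higher ones included FOXC2, a forkhead factor of pharyngeal mesoderm, with a log2 change of 3.51 ± 0.52 (edgeR adjusted p = 0.00491), and MEF2C, a cardiac factor that ISL1 regulates, with 2.90 ± 0.35 (edgeR adjusted p = 0.0015). The lower ones were TCF21, a factor of epicardium and head muscle, with -3.80 ± 0.92 (edgeR adjusted p = 0.0419), and BMP4, the ligand, with -2.13 ± 0.35 (edgeR adjusted p = 0.00851). The other 15, HAND2 and TBX20 among them, did not pass.

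Of the FGF receptors and feedback genes, all 15 above the filter, passaging against NP-ctrl gave 3 higher and 1 lower, with a median log2 change of 0.63. The transcription factor ETV5, a target of FGF signalling, had a log2 change of 3.17 ± 0.51 (edgeR adjusted p = 0.0073). The feedback inhibitors IL17RD and SPRY4 had 2.01 ± 0.30 (edgeR adjusted p = 0.00512) and 1.95 ± 0.35 (edgeR adjusted p = 0.0115). The receptor FGFR2 had -1.83 ± 0.24 (edgeR adjusted p = 0.00263). DUSP6, another target of FGF signalling, did not pass, with 0.58 ± 0.45 (edgeR adjusted p = 0.551). Of 11 other FGF ligands, 9 passed the filter, with 0 called higher by edgeR, FGF17 called lower and a median log2 change of -2.05. FGF18 did not pass, with 2.35 ± 0.70 (edgeR adjusted p = 0.0834), but its FPKM was highest in passaged cells on all 4 days, with 1.65, 14.8, 8.75 and 4.24 against 1.02, 0.38, 1.89 and 2.64 in NP-ctrl. FGF4 and FGF19 reached 159 and 97.8 on day 1, the day of the early FGF8 maximum, and were at most 1.71 from day 3.

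Among the families of the members, EYA1 was not alone. DACH1, of a family that acts with EYA proteins, was higher after passaging than in either static arm, with 1.90 ± 0.27 against NP-ctrl (edgeR adjusted p = 0.00418) and 1.31 ± 0.27 against NP-IWP2 (edgeR adjusted p = 0.0386). On day 5, DACH1 was 8.11 after passaging, 3.77 for NP-IWP2 and 2.13 for NP-ctrl. Of the LIM homeodomain genes and LIM cofactors, 12 of 18 passed the filter, and passaging against NP-ctrl gave LMO2 and LMO3 as higher and LHX8 and LDB2 as lower. LHX8 thus changed in the direction of LHX2, with -3.93 ± 0.60 (edgeR adjusted p = 0.0056). Of 6 other NKX2 genes, 2 passed the filter, NKX2-5 and NKX2-3. NKX2-5, the core cardiac homeobox factor, was 1.57, 110, 252 and 287 after passaging, 1.01, 7.80, 126 and 92.3 for NP-IWP2 and 2.01, 1.31, 19.9 and 26.2 for NP-ctrl on days 3, 5, 7 and 10, with a passaged minus NP-ctrl log2 change of 3.51 ± 0.91 (edgeR adjusted p = 0.0556). On day 3, NKX2-5 was thus no higher after passaging than in NP-ctrl, while NKX2-6 already was. Of 16 T-box genes, 15 passed the filter, 0 were higher and TBX4 and TBX18 were lower after passaging against NP-ctrl, so TBX1 had no family member called in its direction.

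The remaining 3 lists had few calls. Of 11 first heart field and core cardiac factors, MYOCD was higher and HAND1 lower after passaging against NP-ctrl. Of 16 genes of pharyngeal endoderm and its pouches, 10 passed the filter and SOX2 was higher, with 41.6 in passaged cells on day 5 against 0.51 in NP-ctrl. NKX2-1, SHH, FOXE1, GCM2, FOXN1 and HOXA3 of this list did not pass the filter. Of 13 genes of the posterior second heart field and retinoic acid signalling, 11 passed the filter, with RARB, a retinoic acid receptor, higher and HOXB1 lower.

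Markers of other cell types moved with the arms. Summed FPKM of 9 endoderm and hepatic markers on days 5 to 10 was 145 to 4200 for NP-ctrl and 74.7 to 1228 for NP-IWP2, with all 9 above the floor of 3 counts. After passaging it was 3.47 to 21.5, where 3 to 6 were above the floor and FOXA2, HNF4A and APOA2 were at or under it on day 10. Summed FPKM of 8 cardiomyocyte markers on these days was 433 to 602 for NP-ctrl, 581 to 2194 for NP-IWP2 and 428 to 3516 after passaging. Fibroblast and mesenchyme markers (8 genes) summed to 1865 to 4526, 1108 to 1337 and 124 to 458. Epicardial and septum transversum markers (8 genes) summed to 43.4 to 179, 48.6 to 115 and 40.4 to 84.9 in the same order. LRRN4 was the largest part of each epicardial sum after passaging. WT1, TBX18, TCF21, BNC1 and UPK3B were lower after passaging than in either static arm on days 5, 7 and 10. LRRN4 and ALDH1A2 were higher after passaging than in either static arm on days 5 and 7. On day 10 WT1, TCF21, UPK3B and MSLN were at or under the floor after passaging. LHX2 thus lay in the arms where hepatic and fibroblast markers were high, and NKX2-6 in the arm where cardiomyocyte markers reached their highest sum. On day 5 the cardiomyocyte sum was lowest after passaging, with 428 against 433 for NP-ctrl and 581 for NP-IWP2. That order came from MYL7, the largest part of each of these sums, which was lowest after passaging. Every other gene of the list was higher after passaging than in NP-ctrl that day. All of these but ACTN2 were also higher than in NP-IWP2. The part of these cell types in the levels of the 7 genes was not tested.

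For the tissues that LHX2 and ISL1 are otherwise known from, 10 markers of neural and placodal ectoderm on days 5 to 10 summed to 5.80 to 14.7 for NP-ctrl, 16.3 to 69.7 for NP-IWP2 and 4.18 to 9.34 after passaging. On day 10 most of the NP-IWP2 sum was POU4F1, and SOX1, SIX6, RAX, NEUROG1, NEUROD1 and DLX5 were at or under the floor there. Of 7 markers of skeletal and craniofacial muscle progenitors, MYF5 and MYOD1 were at or under the floor in all libraries of days 5 to 10, and the sums were 6.11 to 8.51 for NP-ctrl, 4.12 to 6.69 for NP-IWP2 and 0.10 to 2.43 after passaging. In the static arms most of the sum was TCF21. Markers of endothelium and blood (8 genes) summed to 127 to 172 for NP-ctrl, 110 to 130 for NP-IWP2 and 24.0 to 125 after passaging. KDR was the largest part of each of these sums, with 119 of 125 after passaging on day 10. TEK reached 30.8 in NP-ctrl on day 7. PECAM1 and CDH5 were at most 1.29 and 2.44, in NP-IWP2 on day 10, and HBZ was at or under the floor in every library of days 5 to 10.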

How the data were processed

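Total RNA of 15 H1 cultures was sequenced in bulk, and groups were taken from the sample labels. Per the submitters' notes and the study's methods, the authors trimmed reads with cutadapt 1.9.1, aligned them to hg38 with HISAT2 2.0.1 and counted them per gene with HTSeq 0.6.1. What the authors deposited for each of 60605 genes is a raw count and an FPKM. Each FPKM is the count divided by exon length and library total, and a recomputation differed by at most 0.005. The library kit named is one for long reads (SMRTbell), but the tools are for short reads, so the read type is uncertain, which bears on values scaled by length. Whether counting used strand is not given in the sources used here. Of 60463 genes matched to GENCODE release 44 by identifier, 93.7% had identical coordinates.

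FPKM ratios of single libraries were given exact 95% intervals by the Clopper-Pearson method (Python 3.11.15, scipy 1.17.1). The intervals cover counting error only, because each arm and day had 1 library. PCR copies are not separate molecules, so the intervals may be too narrow even for counting error. Counts of 3 or fewer were set to 3 and such ratios are bounds. Lists of other genes were tested with the quasi-likelihood test of edgeR 4.0.16 (R 4.3.3, TMM, Benjamini-Hochberg over 21206 genes), with day as a block, on the 12 libraries from day 3 on. DESeq2 1.42.0 and limma 3.58.1 were alternatives, as were other scalings, pseudocounts, filters, sets of days and a 4-fold limit. On simulated counts for passaged minus NP-ctrl in which 200 of 21206 genes had a log2 change of 2, the test found 121 of them with 9 false calls, and it made 0 calls in data without change. The simulated libraries were independent draws. A difference of a single culture that lasts over days could therefore not arise in them, and the false calls do not cover it.

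The members and all lists were chosen with earlier results of these data known. Named genes were the 7 members, the 5 protein-coding genes nearest to each in profile, genes of the lists past the edgeR threshold (at most 10 per contrast) or among the 4 highest in FPKM, and annotated genes within 10 kb of a member. Promoter windows and gene starts are from RefSeq (GRCh38.p14). Some genes that the rule selects are not reported here, though they count in the totals of their lists.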

Additional observations from a re-analysis of the deposited data

Results flagged for a closer look

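The ratio of passaged to NP-ctrl for ISL1 turned between days. It was 0.398 on day 3 and 2.81, 3.96 and 2.19 on days 5, 7 and 10. The ratio of NP-IWP2 to NP-ctrl for NKX2-6 turned likewise, from 0.482 on day 3 to 4.22, 3.49 and 3.20 on days 5, 7 and 10. In both cases the days lay on opposite sides of equality and each interval excluded equality, but with 1 library per arm and day the difference between days was not tested. The day 3 value of NKX2-6 rests on 34 counts in NP-IWP2 and 85 in NP-ctrl.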

How the results depend on the processing

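No called log2 ratio of a member changed sign under TMM, DESeq2 or TPM scaling. Ratios near 0 did: NP-IWP2 against NP-ctrl for TBX1 on day 3 (-0.06 to 0.06 with TPM) and day 7 (-0.05 to 0.01 with TMM) and LHX2 on day 3 (0.11 to -0.03 with TMM), and passaged against NP-IWP2 for FGF10 on day 10 (0.16 to -0.07 with TPM). Of 252 ratios so recomputed, 247 stayed as they were, either called or not called. A call was gained by 3 (all FGF8) and lost by 2. The lost calls were ISL1, passaged against NP-ctrl on day 10 (0.84 on the log2 scale with TPM), and NKX2-6, NP-IWP2 against NP-ctrl on day 3. TPM moved the median of genes with more than 3 counts in both libraries in passaged against NP-ctrl from 0.09 to 0.37 on day 3 and from -0.14 to -0.43 on day 10. With TPM the highest day of FGF8 in passaged cells became day 3. At a 4-fold limit, passaged against NP-ctrl kept 2, 4 and 3 calls on days 3, 5 and 7, NP-IWP2 against NP-ctrl 0, 1, 1 and 0 on days 3, 5, 7 and 10, and passaged against NP-IWP2 2, 3 and 1 on days 3, 5 and 10. On log2(FPKM + 1) NP-IWP2 against NP-ctrl had 0 calls on day 3 and 3 on day 10, and with TPM 0 on day 3. The r of NKX2-6 with FGF10 was 0.74 over the 12 libraries of days 3 to 10.

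The 22 calls among listed genes for passaged minus NP-ctrl became 43 with DESeq2, 11 with limma, 57 without the FPKM filter, 4 with only the 2 arms, and 44, 10 and 5 without days 3, 5 and 7. The 15 for passaged minus NP-IWP2 became 26, 0, 44 and 8 in the same order, and 25, 1, 0 and 8 without days 3, 5, 7 and 10. The 0 for NP-IWP2 minus NP-ctrl became 2 with DESeq2, 17 without the filter, 9 with only the 2 arms and 2 without day 3. The causes were not tested. Day was a block in these fits, which pairs the arms by day. No analysis paired by replicate number was possible because each arm and day had 1 library and the labels give no replicate numbers. Without replicates, and with fewer than 100 counts for EYA1 and LHX2 in most libraries, small differences of these genes were not detectable at this depth.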
